A study of Mus musculus with 9 samples.

Results

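Condensin and cohesin are the ring-shaped complexes that fold chromosomes and hold sister chromatids together. Their core subunit genes were followed here through photodynamic therapy (PDT) of B.END3 cells, a mouse line established from brain endothelium. The organism label is mouse, whereas the growth text of the labels and the study's methods call the cells rat. Of the 54532 genes in the table, 10 were taken by name: Smc2 and Smc4 (both condensins), Ncapd2, Ncapg and Ncaph (condensin I), Ncapd3, Ncapg2 and Ncaph2 (condensin II), and Smc1a and Smc3 (cohesin). No measured value entered this choice, although it was made with earlier results of these data known. RNA sequencing covered 9 libraries in 3 groups of 3. Ctrl cells are labelled untreated, and whether they received the photosensitizer or light alone is not stated. Ep1 and Ep2 cells were grown to a monolayer, kept in 300 µg/mL porfimer sodium (a porphyrin photosensitizer) for 90 min, and exposed to a 635 nm laser at 100 mW/cm2, with a light dose of 10 J/cm2 in Ep1 and 20 J/cm2 in Ep2. All groups carry the C57BL/6 strain label and are 1 cell line, and neither the harvest time after light nor separate cultures for the libraries are given in the sources used here, so the p-values measure the spread between these libraries, which may be technical.

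Each of these complexes is built on a pair of SMC ATPases, long coiled-coil proteins that meet at a hinge and are closed into a ring by a kleisin subunit. Condensin I (kleisin NCAPH) and condensin II (kleisin NCAPH2) share SMC2 and SMC4, differ in their HEAT repeat subunits, and compact chromosomes for mitosis, condensin II from within the nucleus and condensin I after the nuclear envelope breaks down. Cohesin, with SMC1A and SMC3 and the kleisin RAD21, embraces sister chromatids from S phase until separase opens it, and it also extrudes chromatin loops in interphase cells.

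The label of the cells was checked first. Of 12 endothelial markers, only Flt1 was at 1 FPKM (fragments scaled to the length of the gene and the depth of the library) or more in every library, at 6.66 to 11.7 FPKM. Cdh5 lay between 0.524 and 1.09 FPKM and Pecam1 between 0.0821 and 0.242 FPKM, while Emcn, Erg and Sox17 were listed at 0 throughout. Among 6 epithelial genes, Krt8, Krt18 and Krt19 were present in all libraries. The others were not: Krt7 was listed at 0 throughout, Cdh1 lay between 0.0118 and 0.103 FPKM, and Epcam between 0.607 and 2.03 FPKM. The summed endothelial level was 7.98 to 8.37 FPKM in Ctrl, 8.38 to 9.48 in Ep1 and 11.9 to 12.8 in Ep2, and the epithelial sum was 1029 to 1081, 937 to 1041 and 1155 to 1372 FPKM. None of 5 pericyte or smooth muscle, 3 astrocyte and 4 leukocyte markers reached 1 FPKM in any library. Most defining markers of the labelled cell type were therefore absent or near 0. The endothelial and epithelial sums were highest in Ep2, where the condensin genes were lowest, and the part of these sums in the results was not tested. Most of the endothelial sum was Flt1, at 6.66 to 7.04 FPKM in Ctrl and 10.4 to 11.7 FPKM in Ep2. Cdh5 overlapped between these groups, at 0.807 to 0.901 FPKM in Ctrl and 0.524 to 0.903 FPKM in Ep2. The higher endothelial sum in Ep2 was therefore mainly a rise of Flt1 and not of the markers as a class.

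Short stretches of promoter show one way in which the genes differ. Genes that peak in G2 and mitosis often carry a cell cycle homology region (CHR, searched as TTTGAA), a site through which the DREAM and MuvB complexes act. In the RefSeq promoter windows (GRCm38.p6, 250 bases before the start and 50 from it), which were at hand for 9 of the 10 genes (Smc4 had none), these letters occurred on either strand in 4, namely Smc2, Ncapd2, Ncapg and Ncapg2. Below is one 30-base stretch per gene, 5′ to 3′ on the strand that reads TTTGAA, with the match in capitals. They lie at chr4:52439064-52439093 (minus strand, opposite to Smc2), chr6:125191692-125191721 (minus strand, as Ncapd2), chr5:45669883-45669912 (plus strand, as Ncapg) and chr12:116405406-116405435 (plus strand, as Ncapg2).
Smc2: agactataccgtTTTGAAcatggaaagcga
Ncapd2: cagccgttgaggTTTGAAcagggaattgcg
Ncapg: ccgcgatagttgTTTGAAaactctggcgct
Ncapg2: tacgcgggtgtgTTTGAAtctggtccgagc
Relative to the RefSeq start, the matches shown lie at bases -145 to -140, -123 to -118, -30 to -25 and -18 to -13, in that order, and Smc2 holds a further match at 27 to 32. The start listed with the FPKM values lies 115 bases upstream of the RefSeq start for Ncapd2 and 34 bases upstream for Ncapg2. The stretch shown for Ncapg2 therefore lies within the listed span of the gene. In all 32851 RefSeq windows of this length, 17.89% hold the letters.

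The longer upstream stretches of Ncapg and Smc3 are printed as a pair picked by fold change. Ncapg was among the genes with the largest fall in Ep2, and Smc3 had the smallest. The first is chr5:45669769-45669918 on the plus strand, where capitals mark the CHR match. The second is chr19:53600246-53600395 on the plus strand, in which no searched motif occurs.
Ncapg: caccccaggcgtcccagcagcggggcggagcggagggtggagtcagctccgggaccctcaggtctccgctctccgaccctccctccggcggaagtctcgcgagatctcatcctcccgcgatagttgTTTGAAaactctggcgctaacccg
Smc3: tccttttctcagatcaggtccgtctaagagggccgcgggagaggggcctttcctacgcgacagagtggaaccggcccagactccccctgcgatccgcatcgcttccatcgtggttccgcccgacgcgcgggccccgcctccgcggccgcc
A CCAAT box (CCAAT, the site of NF-Y) was found in the windows of Smc2, Ncapd2, Ncapg and Smc1a, against 37.41% of all windows. An E2F site (TTTCCCGC, TTTCGCGC, TTTGCCGC or TTTGGCGC) was found in those of Ncapd2, Ncapg, Ncapg2 and Smc1a, against 2.265% of all windows. Both were searched on both strands, and no match of one motif overlapped a match of another. Ncaph, Ncapd3, Ncaph2 and Smc3 held none of the letters searched for the 3 motifs. Variant letters, such as TTCGAA for the CHR, were not searched, and TTCGAA occurs upstream of Ncaph2. A match is a string of letters and not a bound site. Of the genes with the CHR letters, Ncapd2, Ncapg and Ncapg2 fell past 0.6 on the log2 scale in Ep2, and Smc2 did not (-0.48). Of those with no match, Ncaph fell past it (-0.70), and Ncapd3, Ncaph2 and Smc3 did not. A link between motif and fall was not tested.

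Across the libraries, all 10 genes were expressed and all passed the filter on low values, with 680 to 5383 fragments per gene and library out of 16240688 to 19509225 fragments per library. The main pattern was a fall at the higher light dose: in Ep2, each of the 10 genes was lower than in Ctrl and lower than in Ep1, in every library. Of all tested genes, 32.7% separated in this way in Ep2 against Ctrl and 30.3% in Ep2 against Ep1. Fold changes below are differences of log2(FPKM + 1), which slightly understate the change of the lower genes, and p-adj is the adjusted p of limma over 11727 tested genes. In bulk RNA, fewer cells in the phase of the cycle that makes a transcript and less of that transcript per cell cannot be told apart.

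**Figure D1:**
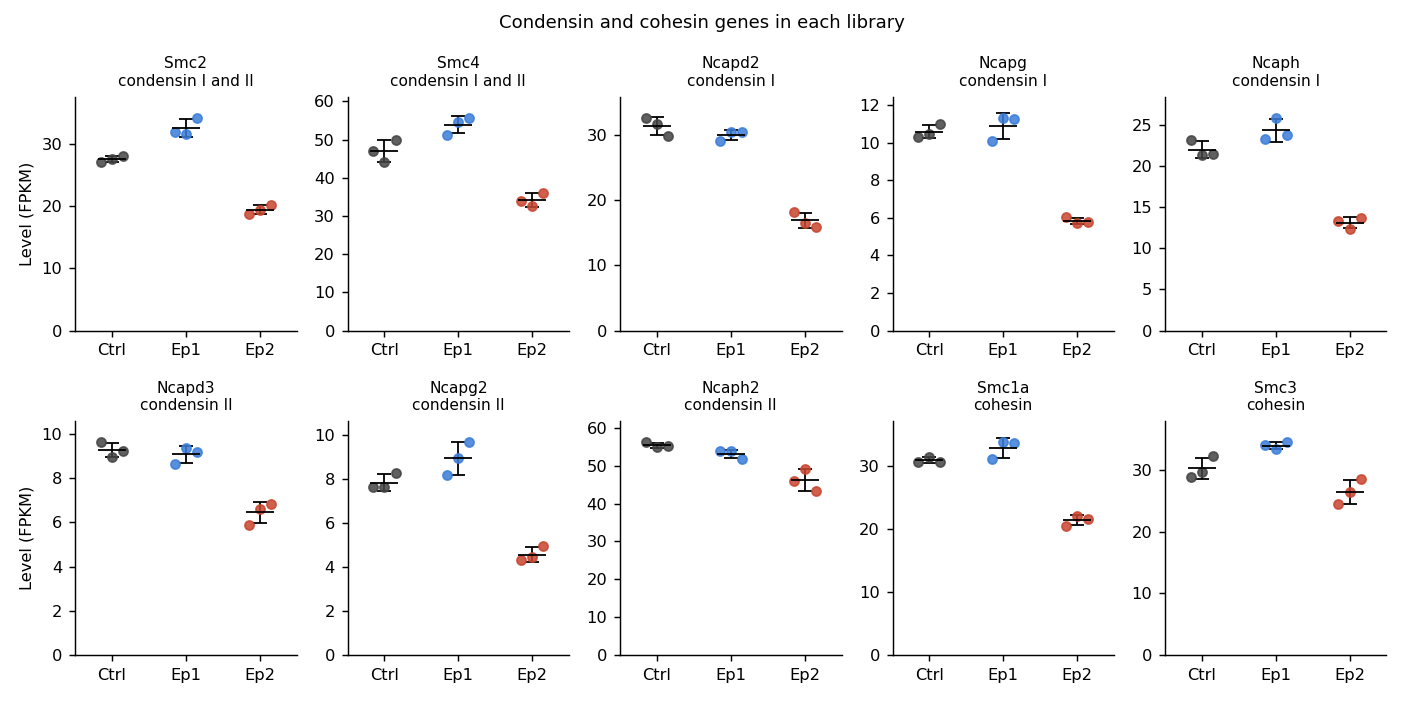
Level in FPKM (y axis, from 0) of each of the 10 genes in the 3 Ctrl, 3 Ep1 and 3 Ep2 libraries (x axis); each point is a library, the long bar the mean and the short bars 1 SD. In every panel the 3 Ep2 points lie below all Ctrl and all Ep1 points, with the widest gaps for Ncapd2, Ncapg, Ncaph and Ncapg2 and the narrowest for Smc3 and Ncaph2.

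Smc2 (ENSMUSG00000028312, chr4:52439243-52488260, plus strand) encodes an ATPase that both condensins need. Its FPKM was 27.1, 27.5 and 28.0 in the Ctrl libraries, 31.9, 31.6 and 34.1 in Ep1, and 18.7, 19.4 and 20.1 in Ep2. The 3 groups did not overlap, and Ep1 was the highest. The means were 27.5 ± 0.452, 32.5 ± 1.40 and 19.4 ± 0.693 FPKM (SD, n = 3 each). Smc2 rose in Ep1 against Ctrl (log2 fold change 0.23, SE 0.045, p-adj = 0.0159) and fell in Ep2 (log2 fold change -0.48, SE 0.045, p-adj = 3.14e-05), and it was the only member called in both directions. The rise did not pass without Ctrl replicate 1 (p-adj = 0.0622), Ctrl replicate 2 (0.0701) or Ep1 replicate 3 (0.0689), whereas the fall passed in every alternative run. Between the doses the difference was -0.71 (p-adj = 7.28e-06).

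Smc4 (ENSMUSG00000034349, chr3:69004738-69034623, plus strand) encodes the ATPase that pairs with SMC2. Its FPKM was 47.1, 44.1 and 49.9 in Ctrl, 51.3, 54.6 and 55.7 in Ep1, and 34.0, 32.6 and 36.1 in Ep2. All Ep1 libraries were above all Ctrl libraries, but the difference of 0.19 did not pass (SE 0.058, p-adj = 0.0609). It did pass in 6 of 17 alternatives. These were voom (p-adj = 0.0207), the stricter filter (0.044), only the groups compared (0.0454) and the replicate block (0.0459). The others were without Ctrl replicate 3 (0.049) or Ep2 replicate 3 (0.0475). In Ep2, Smc4 fell by 0.45 on the log2 scale (p-adj = 0.00019), from a mean of 47.0 to 34.2 FPKM. The gene holds Mir15b and Mir16-2 on its own strand, and both were listed at 0 FPKM.

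Because they work as a pair, the ratio of Smc2 to Smc4 was taken within each library, which leaves out the scaling of the library. The ratio was 0.585 in Ctrl, 0.604 in Ep1 and 0.568 in Ep2, and the libraries of the 3 groups overlapped (log2 ratio -0.77 ± 0.078, -0.73 ± 0.056 and -0.82 ± 0.060). The levels of the shared ATPase pair therefore kept about the same proportion while both moved between groups. This and the other ratios are descriptions with no test.

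All 3 subunits particular to condensin I fell past the 0.6 limit on the log2 scale in Ep2. Ncapd2 (ENSMUSG00000038252, chr6:125168007-125191701, minus strand), a HEAT repeat subunit, was at 32.6, 31.7 and 29.8 FPKM in Ctrl, 29.0, 30.4 and 30.4 in Ep1, and 18.2, 16.5 and 15.9 in Ep2. Ctrl and Ep1 overlapped, and Ep2 stood well below both. The mean fell from 31.4 ± 1.40 to 16.9 ± 1.17 FPKM in Ep2 (SD, n = 3 each), which was 0.538 times Ctrl (log2 fold change -0.86, SE 0.056, p-adj = 5.91e-06). Of the tested genes, 1.82% had a lower log2 fold change. In Ep1 the difference was -0.06 (p-adj = 0.479).

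Ncapg (ENSMUSG00000015880, chr5:45669919-45700546, plus strand) is the other HEAT repeat subunit of condensin I. It was at 10.3, 10.5 and 11.0 FPKM in Ctrl, 10.1, 11.3 and 11.3 in Ep1, and 6.04, 5.73 and 5.80 in Ep2. The Ep2 libraries lay close together and far below the rest, while Ctrl and Ep1 overlapped. The mean in Ep2 was 0.552 times Ctrl (log2 fold change -0.76, SE 0.054, p-adj = 8.36e-06), and the difference in Ep1 was 0.04 (p-adj = 0.693). Its last 3366 bases overlap Lcorl on the opposite strand, a gene at 0.557 to 0.878 FPKM, and the counting is not stated to use strand.

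Ncaph (ENSMUSG00000034906, chr2:127103809-127133954, minus strand), the kleisin of condensin I, was at 23.2, 21.3 and 21.4 FPKM in Ctrl, 23.3, 25.8 and 23.8 in Ep1, and 13.3, 12.3 and 13.6 in Ep2. Every Ep1 library was above every Ctrl library, by as little as the gap between 23.2 and 23.3 FPKM, and the difference of 0.14 did not pass (p-adj = 0.144). In Ep2 the gene fell to 0.597 times Ctrl (log2 fold change -0.70, SE 0.057, p-adj = 1.57e-05).

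Among the condensin II genes the fall ranged widely. Ncapg2 (ENSMUSG00000042029, chr12:116405402-116463731, plus strand), a HEAT repeat subunit, was at 7.61, 7.61 and 8.26 FPKM in Ctrl, 8.18, 8.96 and 9.66 in Ep1, and 4.29, 4.43 and 4.93 in Ep2. Its mean in Ep2 was 0.581 times Ctrl (log2 fold change -0.67, SE 0.069, p-adj = 5.45e-05), a fall close to that of Ncaph, and larger than it with a pseudocount of 0.1 or with voom. It had the lowest mean level of the 10 genes in each group.

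Ncapd3 (ENSMUSG00000035024, chr9:27030175-27095315, plus strand), the other HEAT repeat subunit of condensin II, was at 9.63, 8.97 and 9.24 FPKM in Ctrl, 8.64, 9.38 and 9.20 in Ep1, and 5.90, 6.60 and 6.85 in Ep2. Ctrl and Ep1 overlapped, with a difference of -0.03 (p-adj = 0.784). It fell to 0.695 times Ctrl in Ep2 (log2 fold change -0.47, SE 0.060, p-adj = 0.00018).

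Ncaph2 (ENSMUSG00000008690, chr15:89355719-89372826, plus strand), the kleisin of condensin II, had the highest level in Ctrl and the smallest fall of the condensin genes. It was at 56.2, 54.9 and 55.2 FPKM in Ctrl, 53.8, 53.8 and 51.8 in Ep1, and 46.1, 49.0 and 43.3 in Ep2. The levels stepped down from group to group without overlap, although only the step to Ep2 passed the test (log2 fold change -0.26, SE 0.047, p-adj = 0.00134), and that to Ep1 did not (-0.06, p-adj = 0.427). The Ep2 mean was 0.832 times Ctrl. At its end the gene overlaps Tymp and Sco2 on the opposite strand, at 0.976 to 1.45 FPKM and at 0 FPKM.

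Set side by side within a library, some matching subunits of the condensins shifted apart in Ep2 and others did not. How often the ratios of other gene pairs separate between these groups was not counted. The ratio of Ncaph to Ncaph2, the kleisins, was 0.396 in Ctrl, 0.457 in Ep1 and 0.284 in Ep2 (log2 ratio -1.34 ± 0.051, -1.13 ± 0.075 and -1.82 ± 0.16, SD, n = 3 each), with no overlap between the groups. The ratio of Ncapd2 to Ncapd3 was 3.38, 3.30 and 2.62, lower in each Ep2 library than in any other. By contrast, Ncapg to Ncapg2 was 1.36, 1.22 and 1.29, where the Ep2 libraries overlapped both other groups and the Ep1 libraries were below Ctrl. The transcripts of condensin I thus stood lower against those of condensin II in Ep2 for the kleisins and for NCAPD2 and NCAPD3, and not for the NCAPG pair.

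**Figure D2:**
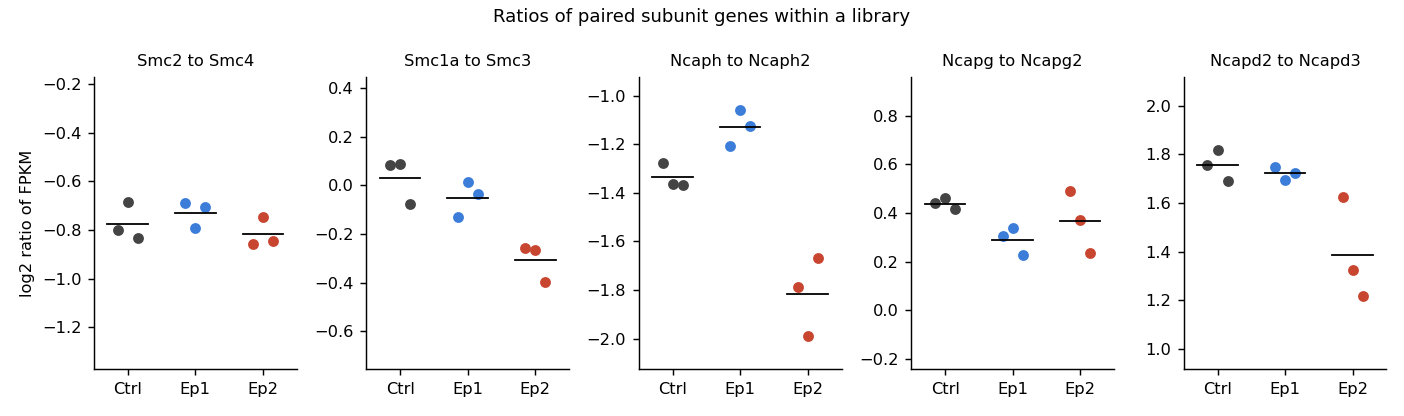
Log2 ratio of the FPKM of 2 subunit genes within a library (y axis, with the same span in each panel) in the Ctrl, Ep1 and Ep2 libraries (x axis); points are libraries and bars are means. Smc2 to Smc4 overlapped between all groups, while Smc1a to Smc3, Ncaph to Ncaph2 and Ncapd2 to Ncapd3 were lower in the 3 Ep2 libraries than in any Ctrl or Ep1 library.

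Cohesin was represented by its ATPases. Smc1a (ENSMUSG00000041133, chrX:152016428-152062694, plus strand) was at 30.7, 31.5 and 30.6 FPKM in Ctrl, 31.1, 33.8 and 33.8 in Ep1, and 20.5, 22.0 and 21.7 in Ep2. Ep1 overlapped Ctrl (difference 0.08, p-adj = 0.262), and Ep2 was lower throughout, at 0.692 times Ctrl (log2 fold change -0.51, SE 0.047, p-adj = 2.77e-05). Its partner Smc3 (ENSMUSG00000024974, chr19:53600398-53645833, plus strand) was at 29.0, 29.7 and 32.3 FPKM in Ctrl, 34.1, 33.5 and 34.6 in Ep1, and 24.6, 26.5 and 28.5 in Ep2. The highest Ep2 library of Smc3, at 28.5 FPKM, came close to the lowest Ctrl library, at 29.0 FPKM. The call on Smc3 was the weakest of the 10 (log2 fold change -0.19, SE 0.060, p-adj = 0.0252), and it was lost without Ctrl replicate 3 (p-adj = 0.0878), Ep2 replicate 1 (0.0649) or Ep2 replicate 2 (0.0588). In Ep1, Smc3 was above Ctrl in every library without passing the test (0.16, p-adj = 0.107). It passed with only the groups compared (p-adj = 0.0483) and without Ep2 replicate 1 (0.0496).

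Although the proteins form a heterodimer, the transcripts of Smc1a and Smc3 did not keep their proportion. The ratio of Smc1a to Smc3 was 1.02 in Ctrl, 0.965 in Ep1 and 0.808 in Ep2 (log2 ratio 0.03 ± 0.095, -0.05 ± 0.074 and -0.31 ± 0.078), and the Ep2 libraries were below all others.

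Per length, the levels of the genes could be put in order. In Ctrl, Ncaph2 and Smc4 led, followed by Ncapd2, Smc1a and Smc3 at 30.3 to 31.4 FPKM, where Ncapd2 overlapped Smc1a and Smc1a overlapped Smc3, and then by Smc2, Ncaph, Ncapg, Ncapd3 and Ncapg2. In Ep1, Smc4 and Ncaph2 overlapped at the top, Smc3, Smc1a and Smc2 overlapped in turn, and so did Ncapd3 and Ncapg2 at the bottom. In Ep2, Ncapd2 had dropped from the third place to the sixth, behind Smc3, Smc1a and Smc2, and only Ncapd3 and Ncapg overlapped as neighbours.

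Taken over the members, Ep2 against Ctrl called 10 of 10 lower, where 29.3% of all tested genes were called lower. The stricter DEG rule, with an absolute log2 fold change above 0.6 as well, was met by 4 of 10 (Ncapd2, Ncapg, Ncaph and Ncapg2), where 5.87% of all tested genes were DEGs in that direction. The median log2 fold change was -0.50 for the 10 genes and -0.03 for all tested genes. It was -0.69 for the 6 non-SMC condensin genes and -0.46 for the 4 SMC ATPases. The libraries of Ep2 were all below those of Ctrl for 10 of 10 members and for 32.7% of tested genes.

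The lower dose looked different. Ep1 against Ctrl called 1 member higher (Smc2) and 0 lower by limma, with 6.32% and 4.97% of all tested genes called in those directions, and no member was a DEG, where 0.571% of genes were DEGs with higher levels. At an unadjusted p of limma under 0.05, 5 members were higher and 0 lower, and voom called 2 higher. The share of all tested genes was not counted at either of these cuts, so these counts cannot be set against it. The count of 1 became 0 without Ctrl replicate 1, Ctrl replicate 2 or Ep1 replicate 3, and 2 without Ctrl replicate 3, Ep2 replicate 1 or Ep2 replicate 3. The member median was 0.11, and that of all genes was -0.01. In 4 members (Smc2, Smc4, Ncaph and Smc3) all Ep1 libraries were above all Ctrl libraries, and in 1 (Ncaph2) all were below, where 20.8% and 20.5% of tested genes separated in those ways.

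Directly between the doses, Ep2 against Ep1 called 10 of 10 lower (25.2% of all tested genes), of which 6 were DEGs (3.97% of tested genes), namely Smc2, Smc4, Ncapd2, Ncapg, Ncaph and Ncapg2. Smc1a, whose difference was -0.596, fell just short of the 0.6 limit, and Smc4 at -0.64 just passed it. Over the alternative runs, Smc1a ran from -0.634 to -0.540 and Smc4 from -0.679 to -0.585. Whether either of them is a DEG thus depends on the processing. The largest differences were those of Ncaph and Ncapg2, both -0.84 (p-adj = 1.07e-05 and 2.62e-05), and the member median was -0.68. The comparisons share libraries: Ctrl serves both doses and Ep2 enters 2 of the 3, so their values are not independent.

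**Figure D3:**
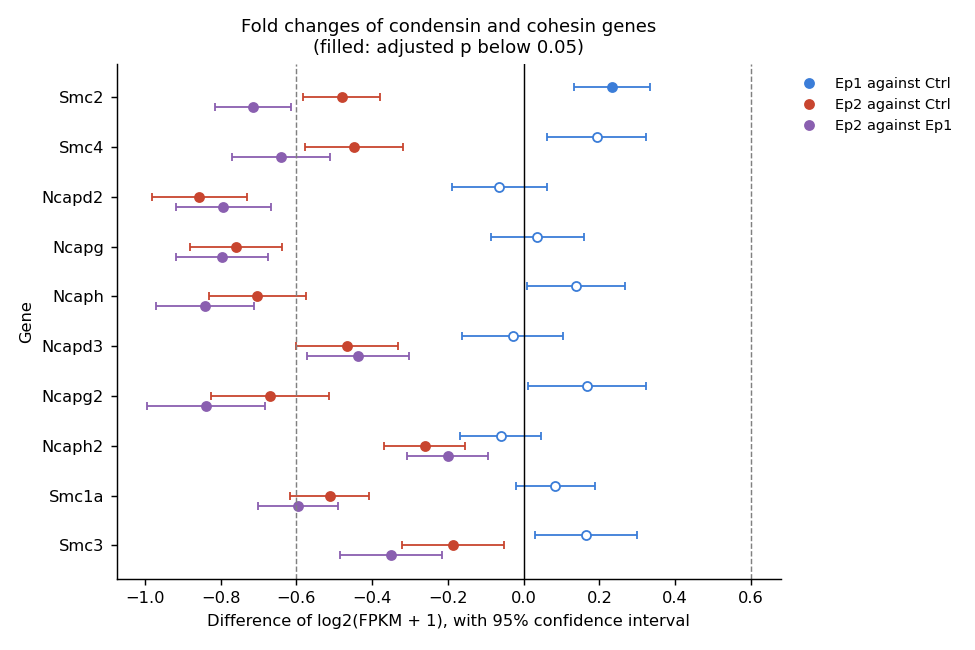
Difference of log2(FPKM + 1) with its 95% confidence interval (x axis) for each of the 10 genes (y axis) in Ep1 against Ctrl, Ep2 against Ctrl and Ep2 against Ep1; filled points have an adjusted p below 0.05 and dashed lines mark 0.6 in either direction. All 10 genes are filled and left of 0 in both Ep2 comparisons, and only Smc2 is filled in Ep1 against Ctrl.

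The partners of cohesin did not share one direction. Among 17 genes of loading, release, acetylation and cleavage, 7 were lower, 4 were higher and 6 were not called in Ep2 against Ctrl, with a median of 0.00, where 29.3% of all tested genes were called lower and 23.9% higher. In Ep1, 1 was lower and 4 were higher (4.97% and 6.32% of all tested genes), counts that ran from 0 to 2 and from 1 to 7 over the alternatives. Rad21, the kleisin that closes the SMC1A and SMC3 ring, was at 106, 126 and 109 FPKM in the means of Ctrl, Ep1 and Ep2. It rose in Ep1 (log2 fold change 0.24, p-adj = 0.00823), and its difference in Ep2 was 0.03 (p-adj = 0.45). The HEAT repeat subunit Stag2 rose at both doses (0.22, p-adj = 0.0307 in Ep1 and 0.21, p-adj = 0.00824 in Ep2), while its paralog Stag1 passed in neither (p-adj = 0.107 and 0.981). The rise of Stag2 in Ep1 did not pass without the filter, without Ctrl replicate 1 or 2 or without any 1 Ep1 library (p-adj up to 0.105). Stag1 passed in Ep1 with only the groups compared (p-adj = 0.0161), with voom (0.0352) or without Ep2 replicate 1 (0.0149). Within the cohesin ring, Smc1a and Smc3 were thus lower in Ep2, Stag2 was higher, and Rad21 was not called.

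Nipbl, the loader of cohesin, rose in both treated groups, from 13.0 FPKM in Ctrl to 16.0 in Ep1 (log2 fold change 0.28, p-adj = 0.0273) and 16.3 in Ep2 (0.30, p-adj = 0.00345). Espl1, the separase that cleaves RAD21 at anaphase, fell from 21.8 to 9.07 FPKM in Ep2 (-1.18, p-adj = 1.84e-06) and slightly in Ep1 (-0.19, p-adj = 0.0462), the study having singled it out on these samples. In Ep1 the call on Nipbl was lost without the filter (p-adj = 0.0818) or without any 1 of the Ctrl or Ep1 libraries (p-adj up to 0.102). That on Espl1 was lost there without Ctrl replicate 1 or 2, Ep1 replicate 1 or 3 or Ep2 replicate 2 (p-adj up to 0.146). The Espl1 call was also lost without the filter or with the replicate block (p-adj = 0.0586). In Ep2 the calls on Nipbl and Espl1 both held in all 17 alternatives. Chosen after their values were seen, 3 further genes act on cohesion. Large falls in Ep2 were those of Cdca5, the sororin that keeps cohesin on sister chromatids (-0.996, p-adj = 2.55e-06), and Esco2, an acetyltransferase of SMC3 (-0.81, p-adj = 1.1e-05). The third is Esco1, the paralog that acetylates SMC3 through interphase, which rose in Ep2 (0.34, p-adj = 0.00387). Of the meiotic forms of cohesin, Rad21l was listed at 0 in all libraries and Smc1b, Stag3 and Rec8 were too low to test.

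The third SMC complex, SMC5/6, which serves DNA repair, had calls in both directions. Of its 6 genes, 2 were lower, 1 was higher and 3 were not called in Ep2 against Ctrl, with a median of 0.00, where 29.3% and 23.9% of all tested genes were called lower and higher. Its kleisin gene Nsmce4a fell from 14.8 to 10.2 FPKM (-0.50, p-adj = 7.71e-05), and the SUMO ligase gene Nsmce2 was higher by 0.17 (p-adj = 0.0409), a call lost without the filter, with only the groups compared, with the replicate block, and without Ctrl replicate 2 or 3, Ep1 replicate 3 or Ep2 replicate 2 or 3 (p-adj up to 0.134).

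Genes that act with condensin on mitotic chromosomes were mostly lower in Ep2. Of 6 such genes, 5 were lower and 1 was higher than in Ctrl (29.3% and 23.9% of all tested genes), with a median of -0.57, and their differences in Ep1 ran from 0.02 to 0.21, of which limma called 0 and voom 1. Mki67, the coat protein of mitotic chromosomes, fell from 36.1 to 20.6 FPKM (-0.78, p-adj = 1.84e-06). Top2b, a DNA topoisomerase that non-dividing cells express as well, rose (0.26, p-adj = 0.0114), and Top2a, its mitotic paralog, named after its value was seen, fell by 0.84 on the log2 scale.

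**Figure D4:**
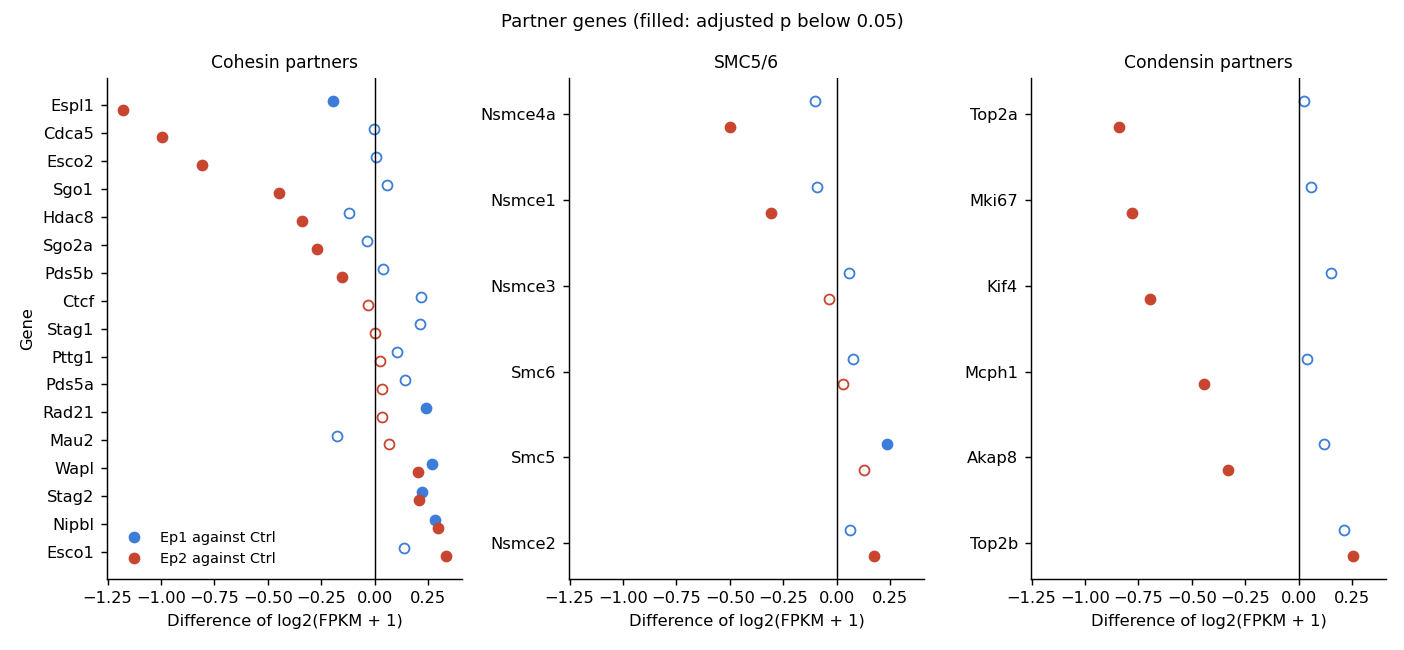
Difference of log2(FPKM + 1) (x axis) in Ep1 and Ep2 against Ctrl for the partner genes of cohesin, the genes of SMC5/6 and the partner genes of condensin (y axis); filled points have an adjusted p below 0.05. In Ep2 the cohesin partners spread from Espl1 at -1.18 to Esco1 at 0.34, and 5 of 6 condensin partners lie left of 0.

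Lists of cell cycle genes moved beside the members. In Ep2 against Ctrl, 41 of 43 S phase genes were lower (median -0.70) and so were 49 of 52 G2/M genes other than the members (median -0.63), with 1 higher, where 29.3% of all tested genes were lower and 23.9% higher. In Ep1, where 4.97% of all tested genes were called lower and 6.32% higher, 2 S phase genes were higher and 41 were not called. Of the G2/M genes, 2 were lower and 2 higher there. These counts rested on single libraries: the S phase count was 0 without any 1 Ctrl library or without Ep1 replicate 2 or 3, both G2/M counts were 0 without Ctrl replicate 1 or 2 or Ep1 replicate 1 or 3, and 7 G2/M genes were higher without Ep2 replicate 1. The median fall of the condensin genes (-0.58) was thus near that of both lists. That of the cohesin ATPases (-0.35) was smaller, but it lies between unlike genes, Smc1a (-0.51) and Smc3 (-0.19). Smc1a fell more than Smc2 (-0.48), Smc4 (-0.45), Ncapd3 (-0.47) and Ncaph2 (-0.26), and less than Ncapd2, Ncapg, Ncaph and Ncapg2. These differences were not tested.

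Single genes other than the members were picked as the nearest in pattern over the 9 libraries, so their closeness follows from the choice. By the root mean square difference of log2(FPKM + 1), each gene centred on its mean, those nearest to the mean of the 5 condensin I genes were Ppa1 (0.0359), Cep55 (0.0379) and Mcm3 (0.0448), where the median tested gene was at 0.355. Of these, Cep55 acts in the abscission of dividing cells and Mcm3 in the replicative helicase, and whether the nearest genes share a role was not tested. Nearest to the mean of Smc1a and Smc3 were Ctps (0.0294), Hspd1 (0.0309) and Ebna1bp2 (0.0334), with a median of 0.24. Ppa1 fell from 52.4 to 34.3 FPKM in Ep2, and Ctps from 54.2 to 42.8 FPKM.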

How the data were processed

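RNA of 9 B.END3 libraries (3 Ctrl, 3 Ep1, 3 Ep2, grouped by the names in the labels) was measured by paired-end sequencing. The authors deposited 1 FPKM value per gene and library, normalized for gene length and library size, in a joint table of 54532 genes. The 9 single-library tables hold the same values. The methods name GRCm39 and the submitters' processing notes name mm8 and Bowtie 0.12.2, whereas 99.86% of 37620 listed positions overlapped GRCm38 genes and 10.99% of 50319 overlapped GRCm39 genes, so GRCm38 positions are given. The counting tool and its strand setting are not given in the sources used here.

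The product of FPKM and gene length came in whole steps (tolerance 0.05) for at least 99.94% of values per library, which recovered 16240688 to 19509225 fragments per library. Each member had 680 or more fragments per library. The errors given rest on the spread between libraries, which includes counting noise, and the part of that noise was not separated. The 11727 genes at 1 FPKM or more in 3 or more libraries were tested as log2(FPKM + 1), pseudocount 1, in 1 limma model of all libraries (eBayes with trend and robust settings, two-sided, Benjamini-Hochberg within each comparison, called at an adjusted p below 0.05, DEG also above 0.6 on the log2 scale). The code of the test was run on simulated data with independent libraries and far fewer changed genes than were called in Ep2. That setting differs from these data, so the run gives no error rate for them. The members, lists and tests were chosen with earlier results of these data known.

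Genes named are the 10 members, Rad21, Stag1 and Stag2, the gene of smallest adjusted p per direction in each partner list, and the 3 genes nearest in pattern to the condensin I genes and to Smc1a with Smc3. Others are named as chosen after their values were seen. Tried as alternatives were dropping the filter or raising it to 5 FPKM, median centring, a pseudocount of 0.1, only the groups compared, a replicate block, voom on the recovered fragments, a gene length correction, a minimum fold change of 1 and the omission of each library. Versions were R 4.3.3, limma 3.58.1, Python 3.11.15, numpy 2.4.6, pandas 2.3.3 and matplotlib 3.10.9. Promoter windows are from RefSeq on GRCm38.p6.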

Additional observations from a re-analysis of the deposited data

Results flagged for a closer look

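Smc2 was the member called in opposite directions at the doses: its log2 fold change against Ctrl was 0.23 in Ep1 (p-adj = 0.0159, limma) and -0.48 in Ep2 (p-adj = 3.14e-05). The direct comparison of Ep2 with Ep1 tested this difference and gave -0.71 (p-adj = 7.28e-06), with all 3 Ep2 libraries below all 3 Ep1 libraries. The rise in Ep1 was lost without Ctrl replicate 1 (p-adj = 0.0622), Ctrl replicate 2 (0.0701) or Ep1 replicate 3 (0.0689).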

How the results depend on the processing

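For the 10 members and 17 alternatives, 164 of the fold changes in Ep2 against Ctrl kept their direction and call, and 6 lost the call, all of Smc3 (p-adj = 0.0742 with median centring, 0.0651 without the filter, 0.0569 with only the groups compared, and 0.0878, 0.0649 and 0.0588 without Ctrl replicate 3, Ep2 replicate 1 or Ep2 replicate 2). In Ep2 against Ep1, all 170 kept both. In Ep1 against Ctrl, 158 kept both, 8 gained the call, 3 lost it and 1 turned, Ncapd3, uncalled throughout, which ran from -0.0514 to 0.0022 as single libraries were left out, the latter without Ep1 replicate 1. The cause was not tested. Members called higher in Ep1 numbered 1, and 2 with the stricter filter, 3 with only the groups compared, 2 with voom, and 0 to 2 when single libraries were left out. With a minimum fold change of 1 on the log2 scale, the DEGs fell from 4 to 0 in Ep2 against Ctrl and from 6 to 0 in Ep2 against Ep1. Replicate numbers did not pair the libraries (same-number correlations from -0.0565 to 0.0744), and the replicate block gave 2 members called higher in Ep1 and left the calls of the members in Ep2 as they were. Among the lists in Ep2 against Ctrl, the cohesin partners called lower went from 7 to 4 with the stricter filter, under which fewer genes are tested, the SMC5/6 genes called lower from 2 to 1 with the gene length correction, and those called higher from 1 to 2 with median centring or without Ep2 replicate 1, and to 0 without the filter, with only the groups compared, with the replicate block and without Ctrl replicate 2 or 3, Ep1 replicate 3, or Ep2 replicate 2 or 3. The replicate block also ended the call on Espl1 in Ep1 (p-adj = 0.0586). The median of all genes moved by less than 0.1 under every scaling. With 3 libraries per group and no stated harvest time, differences smaller than the intervals of the fold changes cannot be resolved.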
